A study of Mus musculus with 8 samples.

Results

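The Schlafen genes Slfn1, Slfn2, Slfn3, Slfn4, Slfn5, Slfn8 and Slfn9 of the mouse were followed through RNA and H3K27me3 in naive CD4+ T cells. They were chosen by gene symbol: these 7 symbols are 7 of 22410 rows of the RNA tables and 7 of 18603 start-site windows of the H3K27me3 tables, and all lie between 82764851 and 83028656 on chromosome 11 (mm9). Cells had been purified from the lymph nodes of mixed 129SV/B6 mice of 4 genotypes. These were Ezh1 -/- (Ezh1 KO), Ezh2 fl/fl CD4-cre (Ezh2 KO, where a cre recombinase under Cd4 control deletes the floxed part of Ezh2 in T cells), Ezh1 -/- with Ezh2 fl/fl CD4-cre (double KO), and WT. PRC2, the Polycomb complex that methylates lysine 27 of histone H3, uses either Ezh1 or Ezh2 as its enzyme, and the resulting H3K27me3 marks silent promoters.

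Each genotype had 1 library per assay, 8 in all, so the values below carry no replicate error and no p-value, and a difference between libraries cannot be told apart from variation between animals or preparations. Which strain's copy of the cluster each mouse carried is not given in the sources used here, so a strain difference at the cluster and a genotype difference cannot be told apart either. Ezh1 RNA was 0.196 in Ezh1 KO cells, 1.12 in Ezh2 KO cells, 0.194 in double KO cells and 1.05 in WT. Ezh2 RNA was 0.913, 1.08, 1.17 and 0.925 in the same order, but the tables give 1 value per gene and cannot show a deleted stretch, so they do not check the Ezh2 genotype. All 8 naive CD4 T cell markers were at 1 or more in every library. The 2278 windows that carried the mark in WT had a median of 64.0 in Ezh1 KO cells, 47.2 in Ezh2 KO cells, 56.5 in double KO cells and 51.3 in WT. Coverage per M reads at these sites was thus not lower in double KO cells than in WT. With no input and no spike-in among the tables analysed, H3K27me3 values compare libraries only per read.

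Schlafen proteins are known for restraint of cell growth and of viral replication. In the mouse, a mutation of Slfn2 leaves T cells unable to stay quiescent, and Slfn1 slows the growth of thymocytes when it is overproduced. Several Schlafen genes are induced by type I interferon, and the long members Slfn5, Slfn8 and Slfn9 add a helicase-like region to the core that the short members Slfn1 and Slfn2 also have.

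The mouse genes arose by duplication and some are close to identical, which bears on every value here because, per the labels, only reads that aligned to a single place with at most 2 errors were kept. An exon of 724 bases occurs in Slfn8, in Slfn9 and in a row of the tables listed only as ENSMUSG00000089921, whose exons lie inside the annotated span of Slfn10-ps. Slfn8 and Slfn9 matched at 699 of its 724 bases, and at 977 of the 1070 bases of the other long exon they share. The middle 60 bases of the 724-base exon are shown as an example, taken by position. In this stretch the copies differ at a larger share of bases than over the whole exon. They are given in the transcript direction from mm9 (minus strand of chromosome 11, within annotated coding sequence), with the 8 positions at which the copies differ in capitals. They lie at chr11:82817891-82817950 for Slfn8, chr11:82795988-82796047 for Slfn9 and chr11:82843624-82843683 for ENSMUSG00000089921.
Slfn8: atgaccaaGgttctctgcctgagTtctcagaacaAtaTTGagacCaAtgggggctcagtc
Slfn9: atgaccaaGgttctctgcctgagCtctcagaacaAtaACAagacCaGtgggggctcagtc
ENSMUSG00000089921: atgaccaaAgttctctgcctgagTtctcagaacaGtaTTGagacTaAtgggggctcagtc

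The share of each gene that a uniquely placed read could cover was computed from mm9, as the share of 50-base stretches with no other genome match at up to 2 mismatches. In exons it was 97.1% for Slfn5, 96.0% for Slfn1 and 80.1% for Slfn2. It was 66.6% for Slfn4, 49.3% for Slfn8, 44.7% for Slfn9 and 25.9% for Slfn3. Of the Slfn8 exon stretches, 39.5% also matched within Slfn9, and 27.4% matched within ENSMUSG00000089921. Of the Slfn3 stretches 56.6% also matched within Slfn4. One 196-base exon each of Slfn8 and Slfn9 had no unique stretch (0%), so the mean over exons includes an exon that reads lying within it could not fill. In the start-site windows the share was 97.4% for Slfn2, 96.2% for Slfn5, 84.4% for Slfn1 and 71.5% for Slfn9, and 43.1% for Slfn8. Values of Slfn3, Slfn4, Slfn8 and Slfn9 are therefore uncertain in level, and those of Slfn5, Slfn1 and Slfn2 rest on mostly unique sequence.

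**Figure D1:**
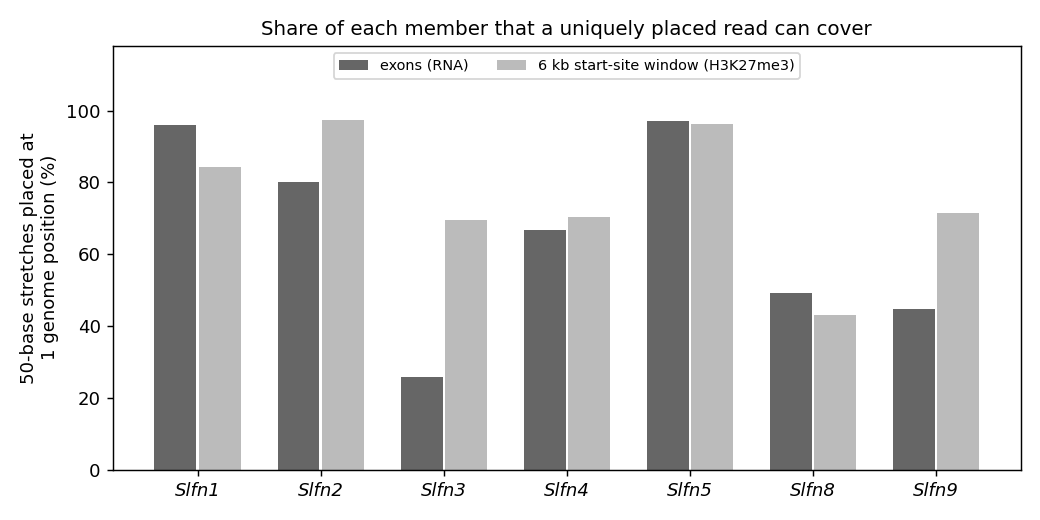
Share of 50-base stretches (%) with 1 genome position at up to 2 mismatches (mm9), in the exons (dark bars) and the 6 kb start-site window (light bars) of each gene. Exons of Slfn3, Slfn8 and Slfn9 lie at 25.9%, 49.3% and 44.7%, below the other members.

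Promoters are shown for the long members, since these alone of the 7 held a sequence motif of the interferon response. They are the 250 bases before the RefSeq gene start (GRCm38.p6), with capitals marking matches to GAAANNGAAA, the core of the element bound by interferon-activated transcription factors, searched on both strands. RefSeq promoters were matched for all 7 members, and 3 of the 7 held the motif in these 250 bases, against 2.98% of 32851 RefSeq promoters. Slfn5 (chr11:82951852-82952101, plus strand) held 1 match on its own strand, beginning 155 bases before the start. Slfn8 (chr11:83020811-83021060, minus strand; the first of 2 listed starts) and Slfn9 (chr11:82991831-82992080, minus strand) each held 1 on the opposite strand, beginning 48 and 45 bases before the start.
Slfn5: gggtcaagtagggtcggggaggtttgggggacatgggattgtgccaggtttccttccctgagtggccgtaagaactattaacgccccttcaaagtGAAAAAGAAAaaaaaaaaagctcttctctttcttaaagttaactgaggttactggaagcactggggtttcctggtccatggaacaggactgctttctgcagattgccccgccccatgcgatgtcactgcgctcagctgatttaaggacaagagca
Slfn8: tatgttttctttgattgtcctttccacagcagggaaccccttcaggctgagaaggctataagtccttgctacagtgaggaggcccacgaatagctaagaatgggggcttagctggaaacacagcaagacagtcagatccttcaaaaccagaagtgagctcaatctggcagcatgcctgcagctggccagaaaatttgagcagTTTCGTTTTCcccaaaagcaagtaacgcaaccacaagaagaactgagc
Slfn9: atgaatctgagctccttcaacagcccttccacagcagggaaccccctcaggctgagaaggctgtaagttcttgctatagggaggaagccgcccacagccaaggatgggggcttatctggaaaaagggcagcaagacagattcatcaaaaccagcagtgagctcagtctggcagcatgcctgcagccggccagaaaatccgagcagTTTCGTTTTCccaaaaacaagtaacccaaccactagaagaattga
The Slfn8 and Slfn9 promoters matched at 204 of 255 aligned columns (80% identity), and the motif letters are the same in both. A match describes letters only, and binding was not measured.

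RNA values are the authors' mean over a gene's exons of the highest read coverage, per M reads. This is a height of coverage, neither divided by nor summed over length. The short members were among the most abundant RNAs of these cells. Slfn2 was at 82.1 in Ezh1 KO cells, 85.3 in Ezh2 KO cells, 104 in double KO cells and 93.4 in WT, above 99.7% of all rows in WT. Slfn1 was at 38.2 in Ezh1 KO cells, 45.3 in Ezh2 KO cells, 38.8 in double KO cells and 32.8 in WT. Slfn2 was highest in double KO cells, with log2 ratios to WT of -0.19 in Ezh1 KO cells, -0.13 in Ezh2 KO cells and 0.16 in double KO cells. Slfn1 was higher than WT in all 3 mutants, by a log2 ratio of 0.22 in Ezh1 KO cells, 0.46 in Ezh2 KO cells and 0.24 in double KO cells. Log2 ratios of RNA were taken after adding 0.1 to each value. In bulk RNA, fewer cells that express a gene and less RNA per cell cannot be told apart.

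The intermediate members Slfn3 and Slfn4 were low. Slfn3 was at 1.49 in Ezh1 KO cells, 1.62 in Ezh2 KO cells, 1.78 in double KO cells and 1.44 in WT, log2 ratios of 0.05, 0.16 and 0.29 to WT. Slfn4, a gene known from macrophages and other myeloid cells, was at 0.0796 in Ezh1 KO cells, 0.107 in Ezh2 KO cells, 0.289 in double KO cells and 0.105 in WT. It stayed under the minimum of 1 in the higher library set for a comparison, and its mean coverage height was that of 5.60, 4.36, 27.2 and 3.81 reads in the same order. The double KO was above the other libraries by the mean over exons, but by the median over exons it was at 0.0478 against 0.0537 in WT, a log2 ratio of -0.06. The 8 monocyte, macrophage and neutrophil markers summed to 0.876 in Ezh1 KO cells, 0.871 in Ezh2 KO cells, 1.45 in double KO cells and 0.662 in WT. Among them Lyz2 was highest in each library, at 1.19 in double KO cells against 0.275 in WT. Csf1r was also higher in double KO cells (0.0526 against 0.0313). Fcgr3 was lower there than in WT (0.139 against 0.270), as was Itgam (0.0493 against 0.0586). Cd14 and S100a9 were at 0 in WT, S100a8 in Ezh2 KO cells, and S100a8 and S100a9 in double KO cells. The part of such cells in the Slfn4 value was not tested.

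Among the long members, Slfn5 was at 7.39 in Ezh1 KO cells, 9.11 in Ezh2 KO cells, 11.9 in double KO cells and 6.76 in WT. All 3 mutants were above WT, with log2 ratios of 0.13, 0.42 and 0.80, and the double KO was 1.76 times WT. On an unstranded count, reads of Slfn5 and of the antisense transcript 1700003F17Rik that overlaps it in the annotation could not be told apart, and the strand used in counting is not given in the sources used here. The row ENSMUSG00000089921 was at 1.72 in Ezh1 KO cells, 2.30 in Ezh2 KO cells, 2.72 in double KO cells and 1.51 in WT. Slfnl1, a related gene on chromosome 4, had a mean coverage height of 0.4 to 1.37 reads.

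Slfn9 had the largest differences among the members that could be compared. It was at 1.09 in Ezh1 KO cells, 2.86 in Ezh2 KO cells, 2.77 in double KO cells and 0.672 in WT, heights of 77.0, 116, 261 and 24.3 reads. The Ezh2 KO and the double KO differed little from each other and were well above WT, while the Ezh1 KO lay between. The ratios to WT were 1.63, 4.25 and 4.13, or 0.63, 1.94 and 1.90 on the log2 scale with the pseudocount. By the median over exons Slfn9 was at 1.10 in Ezh1 KO cells, 2.84 in Ezh2 KO cells, 2.53 in double KO cells and 0.302 in WT, log2 ratios of 1.58, 2.87 and 2.71.

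Slfn8 went the other way in Ezh2 KO cells. It was at 7.94 in Ezh1 KO cells, 3.80 in Ezh2 KO cells, 7.36 in double KO cells and 9.57 in WT. The Ezh2 KO stood apart at 0.397 times WT (log2 ratio -1.31), while the Ezh1 KO and the double KO were at 0.829 and 0.769 times WT. The double KO, which lacks Ezh2 as well, was 1.93 times the Ezh2 KO. By the median over exons the Ezh2 KO was at 3.44 against 9.71 in WT, a log2 ratio of -1.47.

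**Figure D2:**
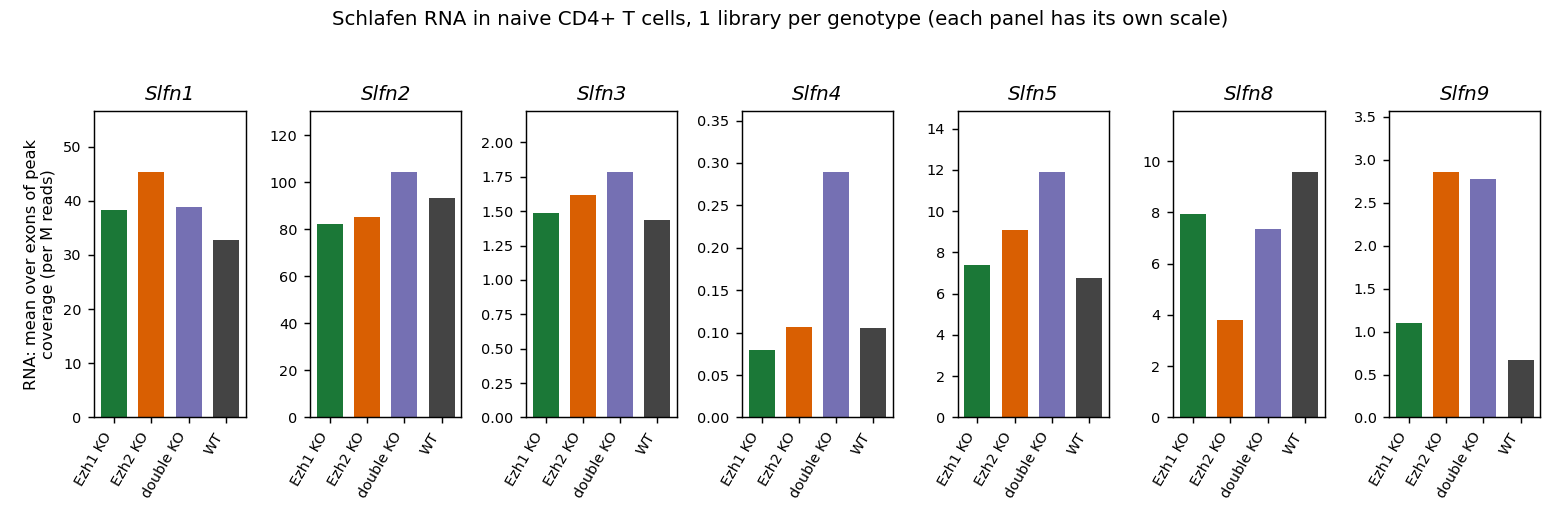
RNA of each member (mean over exons of the highest coverage, per M reads, linear axes from 0, each panel with its own scale), 1 bar per library. Slfn9 is higher and Slfn8 lower in Ezh2 KO cells than in WT, while Slfn1, Slfn2 and Slfn3 vary less.

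At a size of 2-fold or more with at least 1 in the higher library, 6 of the 7 members could be compared. A gene under 1 in WT was compared only where the mutant reached 1, so it could be called higher but not lower. Slfn9, at 0.672 in WT, was such a gene. None of the 6 passed in Ezh1 KO cells, where 0.442% of all 5201 genes compared did. In Ezh2 KO cells 2 of the 6 passed, against 1.5% of all 5347 genes. Slfn9 was higher, as were 1.1% of genes, and Slfn8 was lower, as were 0.393%. In double KO cells 1 of the 6 passed, Slfn9, against 1.24% of all 5313 genes in either direction and 1.07% upward. At 1.5-fold or more upward, Slfn9 passed in Ezh1 KO cells (0.596% of genes did), and Slfn5 and Slfn9 passed in double KO cells (2.65% of genes did). The median log2 ratio of the 6 members compared was 0.09 in Ezh1 KO cells, 0.29 in Ezh2 KO cells and 0.27 in double KO cells, beside -0.13, -0.04 and -0.10 over all genes compared. The 3 comparisons share the WT library, so their ratios are not independent of each other.

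Because Slfn8 and Slfn9 share so much sequence, their values were also added. Reads that fit both genes were not kept for either, so the sum does not restore them. The sum was 9.03 in Ezh1 KO cells, 6.66 in Ezh2 KO cells, 10.1 in double KO cells and 10.2 in WT. Slfn9 made up 12.1% of it in Ezh1 KO cells, 42.9% in Ezh2 KO cells, 27.4% in double KO cells and 6.56% in WT. In double KO cells the sum was 0.989 times WT while the Slfn9 share was higher than in WT, and in Ezh2 KO cells the sum itself was 0.650 times WT. By the median over exons the Slfn9 share was 11.3%, 45.2%, 24.6% and 3.01% in the same order.

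**Figure D3:**
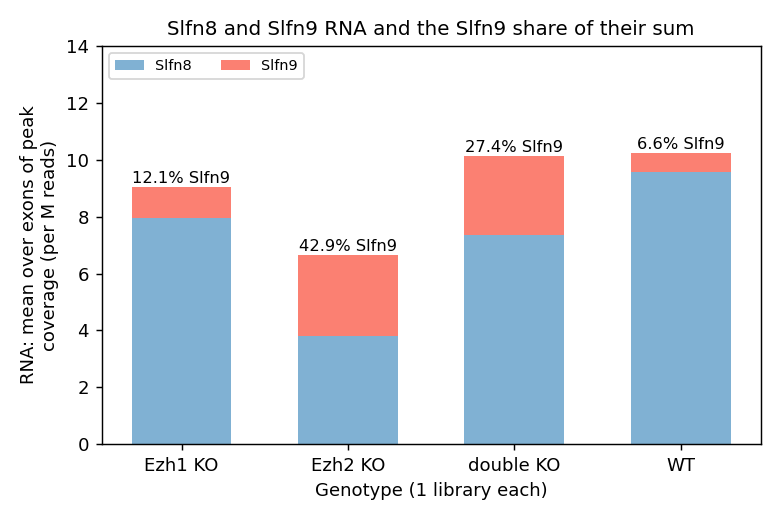
RNA of Slfn8 and Slfn9 stacked for each genotype (mean over exons of the highest coverage, per M reads, 1 library each), with the Slfn9 share of the sum above each bar. The share is 42.9% in Ezh2 KO cells, 27.4% in double KO cells and 6.56% in WT.

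Gene lists for the states that the Schlafen genes are linked to were set beside them. Of 38 genes induced by type I interferon, 37 had a row. In Ezh1 KO cells 0 of the 31 that could be compared were at least 2-fold higher than in WT, in Ezh2 KO cells 12 of 35, and in double KO cells 13 of 36, with none 2-fold lower in any mutant. Genes of the list under 1 in WT entered these counts only through a mutant value of 1 or more, and could not be called lower. Among all genes compared, 0.442% were past 2-fold in either direction in Ezh1 KO cells, and 1.1% in Ezh2 KO cells and 1.07% in double KO cells were 2-fold higher. The list medians were log2 ratios of 0.21, 0.84 and 0.89, beside -0.13, -0.04 and -0.10 over all genes compared. Ifi44 was at 0.598 in Ezh1 KO cells, 2.29 in Ezh2 KO cells, 3.14 in double KO cells and 0.314 in WT. Oasl2, a homologue of the oligoadenylate synthetases that sense viral RNA, was at 1.30 in Ezh1 KO cells, 4.77 in Ezh2 KO cells, 3.00 in double KO cells and 0.677 in WT. Oasl1 and the antiviral gene Rsad2 were at 1.18 and 2.07 in double KO cells, against 0.256 and 0.593 in WT. These 4 genes are those of the list with the largest ratio of double KO over WT, and each was under 1 in WT. Whether the promoter motif above relates to these values was not tested.

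The other lists had fewer genes past 2-fold. Of 24 genes held to keep T cells quiescent, 19 could be compared, and 0 of the 19 were 2-fold higher in any mutant. In Ezh2 KO cells 1 of the 19 was 2-fold lower, the mRNA decay gene Zfp36l2 at 6.05 against 13.0 in WT, beside 0.393% of all genes. The list medians were -0.12 in Ezh1 KO cells, -0.01 in Ezh2 KO cells and 0.04 in double KO cells. Btg2, which restrains proliferation, was at 8.38 in Ezh1 KO cells, 8.21 in Ezh2 KO cells, 7.38 in double KO cells and 11.8 in WT. The survival gene Bcl2 was at 8.88 in double KO cells against 7.04 in WT, the ubiquitin ligase gene Cblb at 1.72 against 1.35, and Zfp36l2 at 15.9 against 13.0. Of 24 activation and cell cycle genes, 13 could be compared in Ezh1 KO cells, 14 in Ezh2 KO cells and 13 in double KO cells, with medians of 0.02, 0.29 and -0.01. At 2-fold or more, 1 of the 14 was higher in Ezh2 KO cells, the mitotic gene Birc5 at 1.59 against 0.641 in WT, beside 1.1% of all genes, while none was in the other mutants and none was 2-fold lower. Being under 1 in WT, Birc5 could be called higher but not lower. The cyclin gene Ccnd2 was at 5.57 in double KO cells against 3.47 in WT, Birc5 at 1.06 against 0.641, the topoisomerase gene Top2a at 2.23 against 1.505, and the costimulatory receptor gene Tnfrsf4 at 0.959 against 1.43.

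Markers of other lymph node cells were measured beside these lists, and their part in the RNA differences was not tested. The 5 NK cell markers summed to 1.94 in Ezh1 KO cells, 5.48 in Ezh2 KO cells, 2.82 in double KO cells and 2.68 in WT. Among them Gzma was at 0.270 in Ezh1 KO cells, 2.90 in Ezh2 KO cells, 1.13 in double KO cells and 0.226 in WT. Klrb1c was at 0.0940, 1.03, 0.0498 and 0.110 in the same order, so both were highest in Ezh2 KO cells. Klrd1 and Prf1 were lower in Ezh2 KO cells than in WT, at 0.398 against 0.854 and 1.07 against 1.43. Ncr1 was at 0.0737 against 0.0657. The 5 B cell markers summed to 1.88, 3.05, 5.19 and 1.61 in the same order. For comparison, the 8 naive CD4 T cell markers summed to 110 in Ezh1 KO cells, 108 in Ezh2 KO cells, 114 in double KO cells and 125 in WT. The 2 CD8 T cell markers summed to 1.01, 1.21, 2.07 and 1.22, and the 4 dendritic cell markers to 0.343, 0.441, 0.787 and 0.360.

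H3K27me3 was measured as the area of coverage over a 6 kb window at each gene start, per M reads. None of the members carried the mark at the level of marked windows in any library. Marked windows were those at 40.1 or more in WT, 4 times the WT median of 10.0 over windows of the 6162 genes with the most RNA in WT. The highest Schlafen values were 27.5 for Slfn4 and 26.3 for Slfn5, both in double KO cells. In WT the members stood at 0.517 (Slfn8) to 1.93 (Slfn5) times that background. The windows of Slfn2, Slfn8 and Slfn9 were at or under about the background in every library, with 1.07 times its own library's background for Slfn2 in Ezh2 KO cells as the highest ratio. Only uniquely placed reads were kept, and 43.1% of the Slfn8 window and 71.5% of the Slfn9 window was unique, against 97.4% for Slfn2. The low areas of Slfn8 and Slfn9 are thus uncertain as levels of the mark.

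Among the short members, Slfn1 was at 13.1 in Ezh1 KO cells, 18.4 in Ezh2 KO cells, 18.1 in double KO cells and 11.5 in WT, from 189, 238, 264 and 151 read equivalents. The Ezh2 KO and the double KO were close together and above WT. The log2 ratios to WT, with 1 added to each value, were 0.18, 0.64 and 0.61. The 95% counting intervals, which cover counting error only and were taken without the added 1, ran from -0.12 to 0.51, from 0.38 to 0.99 and from 0.37 to 0.96. Slfn2 was at 6.50 in Ezh1 KO cells, 11.8 in Ezh2 KO cells, 9.33 in double KO cells and 8.40 in WT. Its interval lay above 0 in Ezh2 KO cells alone (0.13 to 0.85), and no longer did when background windows were set equal.

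Among the intermediate members, Slfn4 was at 21.7 in Ezh1 KO cells, 23.0 in Ezh2 KO cells, 27.5 in double KO cells and 16.8 in WT. All 3 mutants were above WT, with log2 ratios of 0.35, 0.43 and 0.67 and intervals of 0.11 to 0.62, 0.20 to 0.71 and 0.47 to 0.95. Slfn3 was at 13.8 in Ezh1 KO cells, 17.2 in Ezh2 KO cells, 17.8 in double KO cells and 13.9 in WT. The start of Slfn3 lies within 3 kb of the last exon of Slfn4, so the Slfn3 window also covers that exon. Of the 50-base stretches in the Slfn4 and Slfn3 windows, 70.3% and 69.5% were unique.

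Among the long members, Slfn5 was at 20.7 in Ezh1 KO cells, 18.0 in Ezh2 KO cells, 26.3 in double KO cells and 19.4 in WT. By window area the double KO was above the other libraries, with a log2 ratio to WT of 0.42 (interval 0.20 to 0.67). By the highest bin it was at 0.249, against 0.253 in Ezh1 KO cells and 0.181 in WT. Slfn8 was at 4.32 in Ezh1 KO cells, 9.78 in Ezh2 KO cells, 7.09 in double KO cells and 5.18 in WT, from 62, 127, 103 and 68 read equivalents. Its log2 ratio of 0.80 in Ezh2 KO cells (interval 0.49 to 1.37) was above 99.96% of the windows compared, at a level of 0.887 times background and in a window of which 43.1% was unique. Slfn9 was at 7.30 in Ezh1 KO cells, 9.08 in Ezh2 KO cells, 8.44 in double KO cells and 9.41 in WT, and its 3 counting intervals all held 0.

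**Figure D4:**
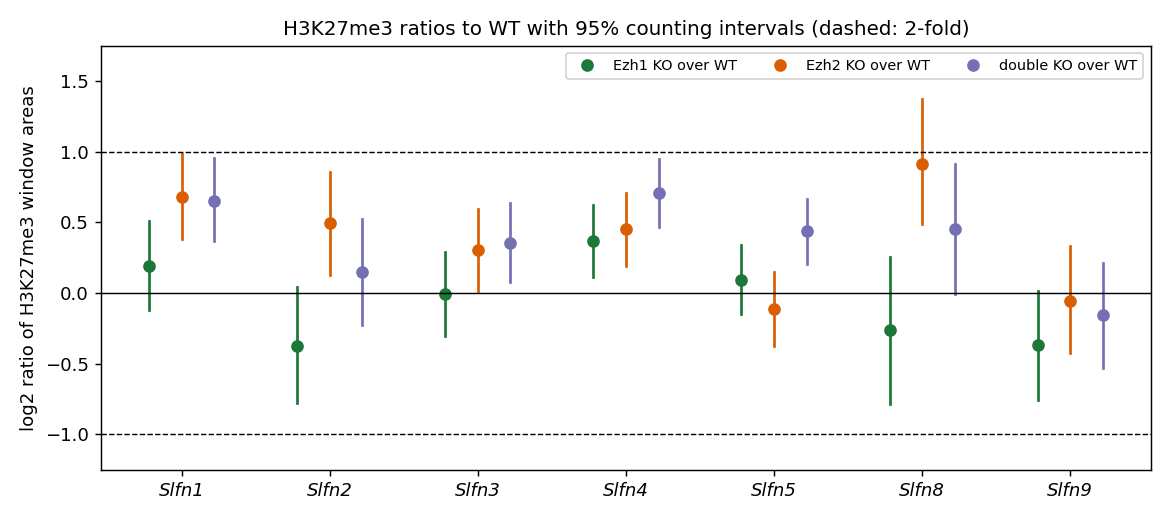
Log2 ratio of H3K27me3 window areas (without an added constant) of each mutant over WT for the 7 members, with 95% counting intervals as lines and 2-fold as dashes. The intervals of Slfn1, Slfn2, Slfn3, Slfn4 and Slfn8 lie above 0 in Ezh2 KO cells, and those of Slfn9 hold 0 in every mutant.

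No member differed from WT by 2-fold or more in H3K27me3. Among all windows compared, 0.0334% did in Ezh1 KO cells, 0.0334% in Ezh2 KO cells and 0.172% in double KO cells. At 1.5-fold or more upward, 2 of 7 members passed in Ezh2 KO cells (Slfn1 and Slfn8), where 0.606% of windows did, and 2 of 7 in double KO cells (Slfn1 and Slfn4), where 1.14% did. Counting intervals lay above 0 for 1 of 7 members in Ezh1 KO cells (29.1% of windows), for 5 of 7 in Ezh2 KO cells (8.36%) and for 4 of 7 in double KO cells (18.5%). No member's interval lay below 0. With background windows set equal between libraries, a scaling chosen for these counts after seeing the data, intervals lay above 0 for 3 of 7 members in Ezh2 KO cells (2.42% of windows), no longer for Slfn2 and Slfn3. They did so for 1 of 7 in Ezh1 KO cells (34.1% of windows) and for 4 of 7 in double KO cells (14.7%), the same numbers of members as before. With it, Slfn8 alone passed 1.5-fold in Ezh2 KO cells (0.111% of windows) and Slfn4 alone in double KO cells (0.812%). The sum over the 7 windows was 87.5 in Ezh1 KO cells, 107 in Ezh2 KO cells, 114 in double KO cells and 84.6 in WT.

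For the 21 other windows within 500 kb of the cluster, the median log2 ratio was 0.12 in Ezh1 KO cells, -0.03 in Ezh2 KO cells and 0.15 in double KO cells, beside -0.01, 0.43 and 0.39 for the members. Ratios of the 21 other windows ran from -0.20 to 0.49 in Ezh2 KO cells and from -0.35 to 0.30 in double KO cells. These windows differ from the members in level. They include the marked windows of Rasl10b, Gas2l2 and Mmp28 (54.4, 48.2 and 73.7 in WT), while no member was marked. Of the nearest neighbours, Unc45b was at 35.7 in Ezh1 KO cells, 28.2 in Ezh2 KO cells, 30.8 in double KO cells and 29.1 in WT, and Nle1 was at 21.9, 18.2, 20.7 and 18.6. On the other side Ap2b1 was at 7.57, 9.49, 8.20 and 10.7. Uniqueness was not computed for these neighbours. Of the windows compared on the gene lists above, none differed by 2-fold. The median H3K27me3 log2 ratio over 35 interferon windows was 0.04 in Ezh1 KO cells, 0.15 in Ezh2 KO cells and 0.07 in double KO cells. It was 0.04, 0.24 and 0.12 over 22 quiescence windows and -0.03, 0.14 and 0.06 over 22 activation windows, beside 0.09, -0.01 and 0.05 over all windows compared. The median of the background windows was 0.966 times WT in Ezh1 KO cells, 1.10 times in Ezh2 KO cells and 1.03 times in double KO cells. Windows of highly expressed genes were thus higher in Ezh2 KO cells than in WT. The list medians were not adjusted for this difference, and its part in them was not tested.

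**Figure D5:**
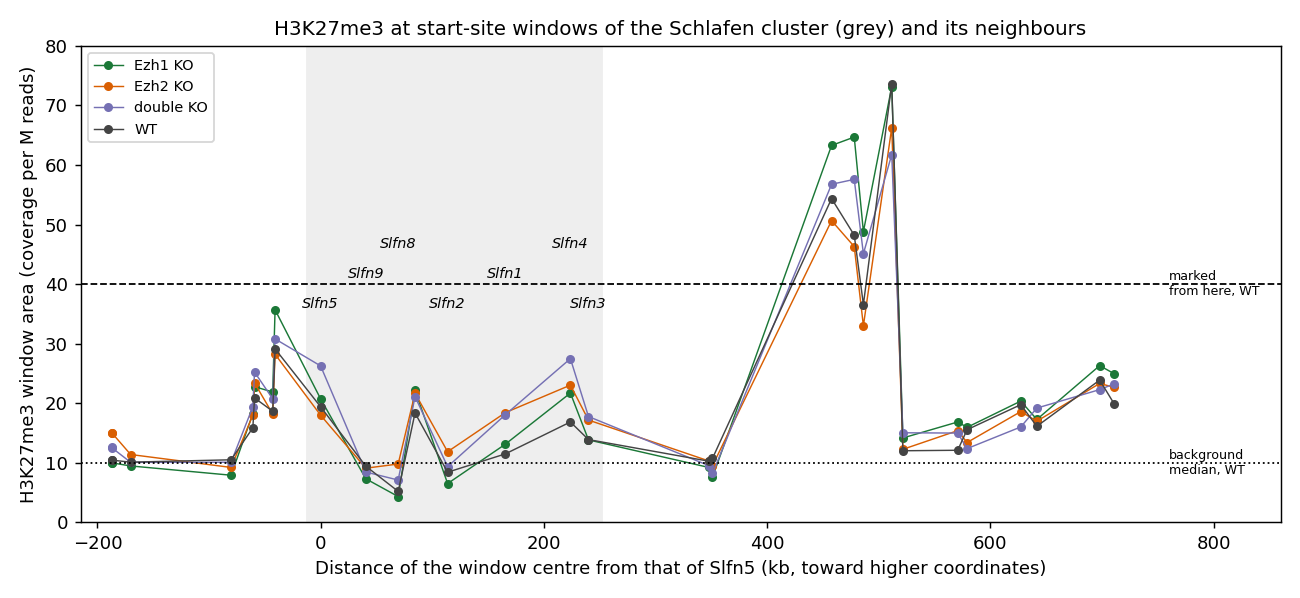
H3K27me3 window area (coverage per M reads) against distance from the Slfn5 window centre (kb) for 4 genotypes; grey marks the cluster, where the unlabelled window is ENSMUSG00000089921, the dotted line the WT background median and the dashed line the WT level of marked windows. All 7 members lie under the dashed line in every library, while the windows near 458 to 512 kb include marked ones.

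The directions of the RNA and H3K27me3 differences matched for some members and not for others. In Ezh2 KO cells Slfn8 had lower RNA and more H3K27me3 coverage than in WT, Slfn1 had more of both, and Slfn9 had higher RNA with an H3K27me3 interval that held 0. Slfn5 in double KO cells was higher than WT in both RNA and H3K27me3. Likeness of RNA pattern to the long members was taken as the root mean square difference over the 3 log2 ratios to WT. Of 5448 genes at 1 or more in some library, those listed only by an ENSMUSG identifier were not ranked. Among the rest, the most like Slfn5 were Ikzf3 (0.04), D14Ertd668e (0.07) and Pde7a (0.07). The most like Slfn8 were Zfp429 (0.23), Cirbp (0.27) and Tspan32 (0.28). For Slfn9 these were Lpl (0.20), Sv2c (0.23) and the interferon-induced Oasl1 (0.23). With 3 ratios that share 1 WT library, this likeness is a description of 4 libraries.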

How the data were processed

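Each of 4 genotypes had 1 H3K27me3 ChIP-seq and 1 mRNA-seq table. Per the labels' protocols, reads of 50 cycles were aligned to mm9 with Bowtie 0.12.7 and kept when placed at 1 location with at most 2 errors. Of bcl2fastq, Cufflinks and Cuffdiff, the submitters' processing notes give the names only. The authors deposited coverage signal. Per the file headers it is the area and the peak of a start-site window (ChIP), and the mean and median over exons of the coverage peak (RNA), beside another number, the exon count of the gene. The method behind these columns and any use of input are not given in the sources used here. The values show that ChIP reads were extended to 151 bp and that coverage per M reads was added up in 25 bp bins across 6 kb. The height of 1 read gave depths of 78.2 to 88.2 M reads for ChIP and 36.1 to 94.1 M for RNA. RNA depth was 70.4 M reads in Ezh1 KO cells, 40.7 M in Ezh2 KO cells, 94.1 M in double KO cells and 36.1 M in WT. An effect of depth on the RNA ratios was not tested.

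The design allowed for counts. The tables hold signal, so log2 ratios of the deposited values were used, with a pseudocount of 0.1 (RNA) or 1 (ChIP), a minimum of 1 in the higher library and a size of 2-fold. No p was computed, since each group has 1 library. ChIP counting intervals are exact Clopper-Pearson (95%) on read equivalents and leave out all other error, as PCR copies carry no molecular identifiers. RNA coverage peaks are no counts and got none. Background windows are those of 6162 genes highly expressed in WT. Ratio calls and intervals were tested on simulated data.

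Uniqueness was computed for all 50-base stretches with up to 2 mismatches on both strands of the mm9 genome. Promoter sequences are from RefSeq (GRCm38.p6), and exon sequences from mm9. Python 3.11.15, numpy 2.4.6, pandas 2.3.3, scipy 1.17.1, numba 0.67.0, Biopython 1.88 and matplotlib 3.10.9 were used.

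The members, gene lists and rules were chosen with earlier results of these data known. Named were all members, other Slfn rows, the nearest 2 windows on each side (1 of them is not reported here), Ezh1 and Ezh2, the 4 genes of each list with the largest RNA log2 ratio between double KO and WT, and the 3 genes most like each member that differed by at least 1.5-fold in some mutant. Alternatives were other pseudocounts, no minimum, 1.5-fold, median-of-ratios and TMM scaling (trimming 30% of ratios and 5% of levels), equal background windows, the median over exons and the highest bin.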

Additional observations from a re-analysis of the deposited data

Results flagged for a closer look

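Slfn8 RNA was singled out because the Ezh1 deletion went with opposite differences depending on whether Ezh2 was present. With Ezh2 deleted, the double KO was at 7.36 against 3.80 in Ezh2 KO cells, a log2 ratio of 0.93. With Ezh2 present, the Ezh1 KO was at 7.94 against 9.57 in WT, a log2 ratio of -0.27. The difference between these ratios was 1.20. Over all genes compared, the median log2 ratios were -0.06 and -0.13 in the same order. With median-of-ratios scaling the Slfn8 ratios were 1.00 and -0.14, so the difference with Ezh2 present was small. The difference of 1.20 was not tested, since each genotype has 1 library, and it rests on a gene of which 49.3% of exon stretches are unique.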

How the results depend on the processing

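No paired analysis was possible because each genotype has 1 library per assay. For the same reason no library could be left out. The H3K27me3 alternative that takes the highest bin with the minimum of 1 gave no value, since no member's highest bin reached 1, and a version with a pseudocount of 0.01 and a minimum of 0.05 was added after seeing the data. Counts of members past the size limit moved in these cases. At 1.5-fold, RNA counts were 1 in Ezh1 KO cells and 2 in double KO cells, and H3K27me3 counts were 2 in Ezh2 KO cells and 2 in double KO cells. With the median over exons, 1 member passed in Ezh1 KO cells for RNA (Slfn9). With the highest bin, 1 member passed in Ezh2 KO cells for H3K27me3 (Slfn8). Shares over all genes or windows are not given for this setting or for the median over exons. Leaving out settings that cannot change a single ratio, 348 of 375 member ratios stayed within 0.2 on the log2 scale (RNA) or within 0.5 times the width of their counting interval (H3K27me3), and 27 moved further. None changed sign while past 2-fold, but few RNA ratios and no H3K27me3 ratio were past 2-fold in the main setting. Smaller H3K27me3 ratios to WT did change sign. That of Slfn8 in Ezh1 KO cells ran from -0.30 to 0.31, that of Slfn5 in Ezh2 KO cells from -0.23 to 0.26, and that of Slfn9 in double KO cells from -0.19 to 0.36. H3K27me3 counts above 1.5-fold were 1 in double KO cells under the median of ratios and TMM (Slfn4), beside 0.745% and 0.762% of all windows compared. Across the alternatives the log2 RNA ratio to WT of Slfn9 ran from 1.21 to 2.87 in Ezh2 KO cells and from 1.17 to 2.71 in double KO cells, that of Slfn8 in Ezh2 KO cells from -1.47 to -1.14, and that of Slfn5 in double KO cells from 0.73 to 0.91. Slfn4 RNA in double KO cells ran from -0.06 to 1.37. Slfn8 H3K27me3 in Ezh2 KO cells ran from 0.38 to 1.05. The median-of-ratios scaling moved RNA ratios by its factors of 0.914 (Ezh1 KO), 0.975 (Ezh2 KO) and 0.931 (double KO) relative to WT. Depth limits Slfn4 RNA most, at a height of 3.81 reads in WT.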
